A study of Homo sapiens with 6 samples.

Results

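Ephrins, Eph receptors, semaphorins, plexins, Slits, Robo receptors, netrins and UNC5 receptors were measured in PC-3/Mc and set against PC-3/S. Both derive from PC-3, an established human cell line from a bone metastasis of prostate carcinoma. The members were all probe sets whose platform annotation gives a single gene symbol of these families. They numbered 159 of the 54675 probe sets and stood for 70 of 19775 genes. The 70 were 8 ephrins, 13 Eph receptors, 20 semaphorins, 9 plexins, 3 Slits, 4 Robo receptors, 4 netrins, 4 UNC5 receptors, 4 antisense transcripts named after such genes, and UNC5CL, a UNC5C-like gene that the symbol pattern also matched. The Eph receptor gene EPHB2 was not among them.

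Each subline was measured on 3 one-colour Affymetrix arrays of total RNA from cells taken before confluence. The series title concerns the epithelial-mesenchymal transition and attributes of tumor-initiating cells, and the labels name no treatment, genetic change, passage or clonal origin for either subline. The arrays are called biological replicates, but nothing says that they came from separate cultures, and the p-values therefore reflect array-to-array spread alone, which may be technical. Values are log2 expression, each mean ± SD rests on n = 3 arrays per line, and each difference is PC-3/Mc minus PC-3/S ± SE. A gene was called when its adjusted p, from limma with Benjamini-Hochberg adjustment over all 19775 genes, was under 0.05.

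Guidance proteins steer growing axons by attraction or repulsion, and epithelia, vessels and tumors use them to set cell spacing, adhesion and movement. Ephrins and the Eph receptor tyrosine kinases signal where neighbouring cells touch. Semaphorins act through plexins, which regulate small GTPases, and most secreted semaphorins need a neuropilin as co-receptor. Slits signal through Robo receptors, and netrins through DCC, neogenin and the UNC5 receptors.

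The 6 arrays had medians between 4.98 and 5.09 and correlated at 0.995 to 0.997 within a line, against 0.949 to 0.953 between lines. The 3' minus 5' difference of the array's control genes, which grows as RNA degrades, ran from -0.08 to 0.07 for GAPDH and from -0.09 to 0.19 for ACTB (exact permutation p = 0.3 and 0.6 between the lines, where 0.1 is the smallest possible). KRT8, KRT18 and KRT19, keratins of carcinoma cells, averaged at least 8.78 in both lines. KRT8 and KRT18 were higher in PC-3/Mc (1.03 and 1.16) and KRT19 lower (-0.48). Of the prostate genes, TMPRSS2 averaged 5.84 in PC-3/Mc, against 6.24 in PC-3/S, and was called lower, and KLK3 averaged 6.39 in PC-3/Mc, against 6.73 in PC-3/S, and was not called. The 5 probe sets of CTNNA1, which PC-3 cells lack through a known homozygous deletion, read 3.51 to 5.18. A reading of 5.18 is therefore used as a rough background, chosen after the values were seen, and where the dimmer line averaged at or below it a fold is a lower bound.

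Guidance genes differed in both directions. In PC-3/Mc, 15 of the 70 genes were higher and 20 were lower, together 50%, where 45.9% of all genes were called (23.2% higher and 22.7% lower). For 16 of them the difference was at least 2-fold, 8 in each direction, or 22.9%, where 11.5% of all genes differed that much (5.88% higher and 5.58% lower). The largest were EPHA3, UNC5C and EPHA5 on the higher side and ROBO4, EFNB3 and SEMA3C on the lower side. Of the 8 on the higher side, SEMA3D, SEMA3E and UNC5D fell under 2-fold once arrays were raised to the background reading. The median difference was -0.07 over the members and -0.03 over all genes, and the median absolute difference was 0.38 over the members and 0.22 over all genes. Of the 70, 39 had no overlap between the lines (53.1% of all genes). Both lines averaged above the background reading for 40 members, PC-3/Mc alone for 6, PC-3/S alone for 7 and neither line for 17. Of the 53 above it in a line, 60.4% were called, where 64.2% of all such genes were. At least 2-fold differences made up 28.3% of these 53, where 17.3% of all such genes differed that much. In bulk RNA, fewer cells that express a gene and less of its RNA per cell cannot be told apart.

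**Figure D1:**
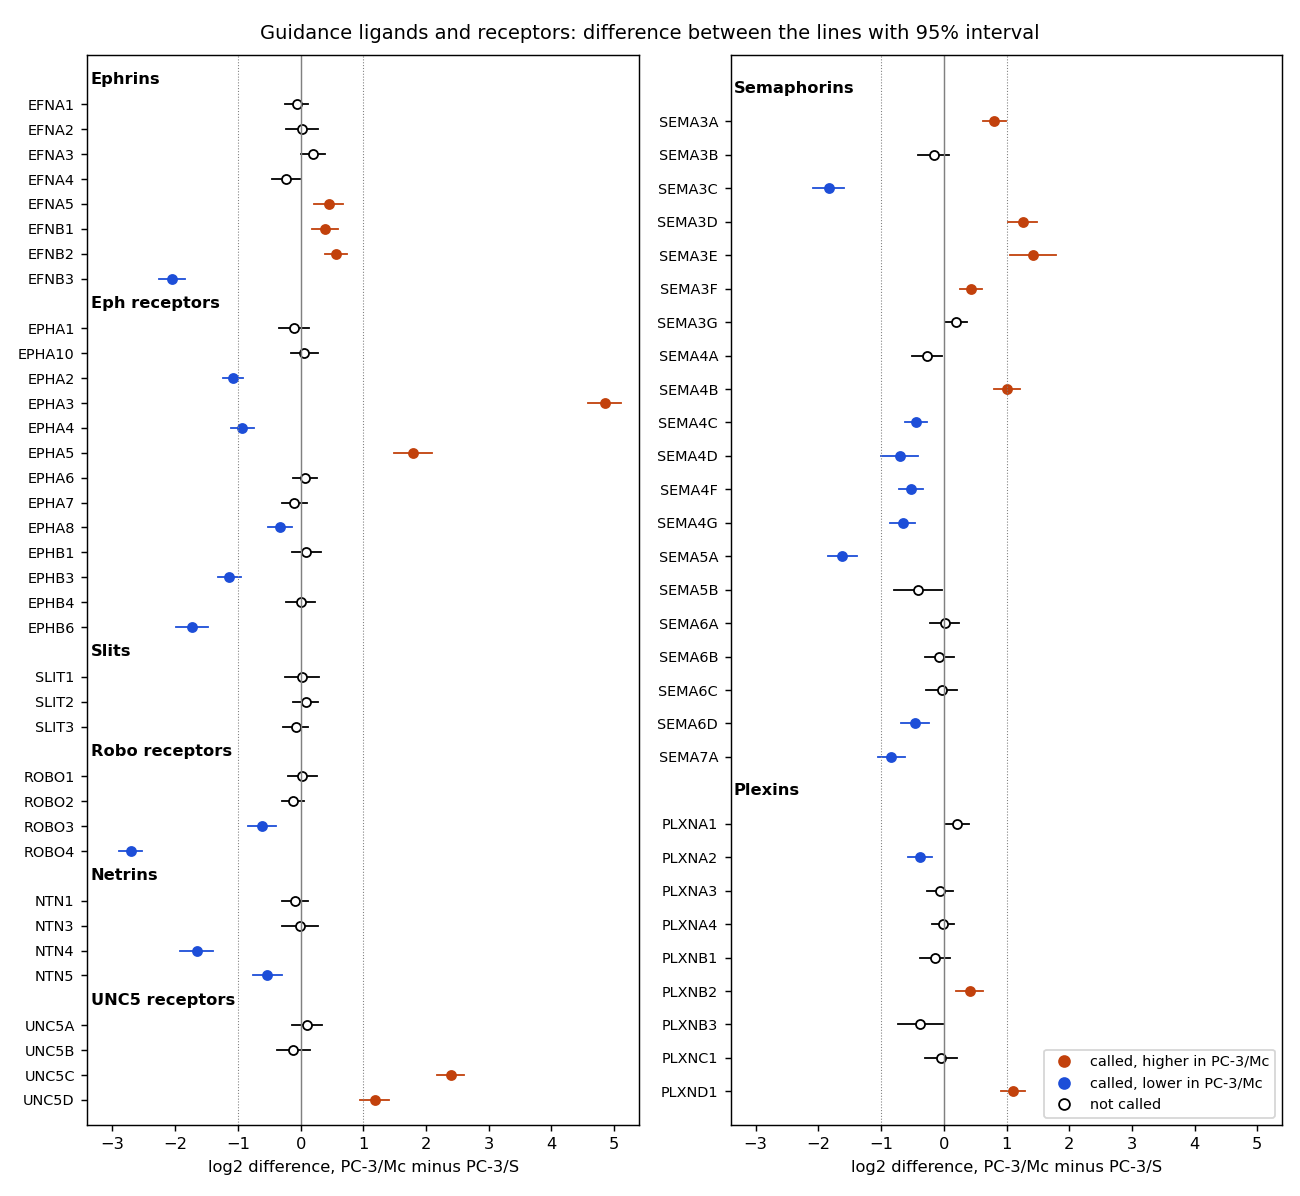
Difference between the lines for the 65 ligand and receptor genes, grouped by family, with the log2 difference (PC-3/Mc minus PC-3/S) along the horizontal axis, the 95% interval as a bar, filled points for called genes and dotted lines at -1 and 1. EPHA3 stands alone at 4.85, ROBO4 lies lowest at -2.71, and every family except the Slits holds called genes.

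Promoters are shown for the 2 largest differences in each direction among the strongly changed members with a single promoter in RefSeq. Each window holds the 250 bases before the annotated start on the gene's own strand (RefSeq, GRCh38.p14), with CpG dinucleotides, the sites of DNA methylation, in capitals. The first pair was higher in PC-3/Mc and the second pair lower: EPHA3 (chr3:89107371-89107620, plus strand), UNC5C (chr4:95548974-95549223, minus strand), ROBO4 (chr11:124897866-124898115, minus strand) and EPHB6 (chr7:142862506-142862755, plus strand).
EPHA3: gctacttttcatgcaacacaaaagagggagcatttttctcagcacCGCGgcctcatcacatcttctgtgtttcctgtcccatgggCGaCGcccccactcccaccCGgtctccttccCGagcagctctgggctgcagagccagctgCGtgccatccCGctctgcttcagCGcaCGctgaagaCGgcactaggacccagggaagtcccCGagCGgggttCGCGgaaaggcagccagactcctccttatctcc
UNC5C: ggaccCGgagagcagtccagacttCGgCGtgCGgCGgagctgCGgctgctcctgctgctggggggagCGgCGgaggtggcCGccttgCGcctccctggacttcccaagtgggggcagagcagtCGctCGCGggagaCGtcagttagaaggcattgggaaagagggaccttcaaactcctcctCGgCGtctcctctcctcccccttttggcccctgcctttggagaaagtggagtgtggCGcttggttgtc
ROBO4: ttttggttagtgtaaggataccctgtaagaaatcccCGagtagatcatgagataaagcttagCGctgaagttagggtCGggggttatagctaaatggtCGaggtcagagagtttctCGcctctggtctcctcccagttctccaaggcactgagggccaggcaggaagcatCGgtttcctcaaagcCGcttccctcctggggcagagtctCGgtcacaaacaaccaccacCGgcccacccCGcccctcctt
EPHB6: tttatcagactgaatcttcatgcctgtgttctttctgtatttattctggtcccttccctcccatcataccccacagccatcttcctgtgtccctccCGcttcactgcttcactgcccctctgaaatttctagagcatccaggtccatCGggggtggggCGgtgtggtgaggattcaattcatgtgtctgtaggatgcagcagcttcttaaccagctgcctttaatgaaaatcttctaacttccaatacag
These windows hold 15 CpG in EPHA3, 17 in UNC5C, 10 in ROBO4 and 3 in EPHB6, against a median of 11 over 35116 promoters. Of the 70 members, 61 had a promoter entry, with 92 promoters in all and a median of 17 CpG. The medians were 17 for promoters of called higher genes, 19 for those of called lower genes and 16 for the rest. The motif CAGGTG, an E-box that Snail and ZEB factors bind, was searched on both strands of the same windows. It was found in 2 of 19 promoters of higher genes (10.5%), in 3 of 28 of lower genes (10.7%) and in 9 of 45 of uncalled genes (20%), where 17.5% of all promoters hold it. TGANTCA, an AP-1 motif, was found in 3 of the 92 windows (3.26%), against 6.57% of all promoters, and GGAATG, a TEAD motif, in 7 (7.61%), against 11.9%. None of the 4 printed windows holds any of these motifs, none of which contains another.

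All 3 measured transmembrane ephrins of the B class were called, and 1 of the 5 lipid-anchored ephrins of the A class. Over the 8 ephrins, all above background in both lines, 50% were called. Of all genes 45.9% were called, and of those above background in a line 64.2%. EFNB3, a transmembrane ligand of EphB receptors, read 5.17, 5.14 and 5.36 in PC-3/Mc, against 7.17, 7.27 and 7.39 in PC-3/S. All PC-3/Mc arrays lay near the background reading and far below all PC-3/S arrays, a difference of -2.05 ± 0.09, or 4.15-fold lower (adjusted p = 2.1e-08). With arrays raised to the background reading, which 2 of the PC-3/Mc arrays did not reach, the difference was -2.04. The second EFNB3 probe set, at 5.28 ± 0.28 in PC-3/Mc, against 5.56 ± 0.27 in PC-3/S, was not called (-0.27, adjusted p = 0.21 over all probe sets). EFNB2, the ligand of EPHB4 in vessel and epithelial boundaries, read 9.54, 9.59 and 9.43 in PC-3/Mc and 8.93, 8.97 and 8.95 in PC-3/S. It was bright in both lines and higher in PC-3/Mc without overlap, by 0.57 ± 0.08 (adjusted p = 1.1e-04). EFNB1 was also higher, at 6.41 ± 0.14 in PC-3/Mc, against 6.02 ± 0.09 in PC-3/S (adjusted p = 0.0052), in the same direction as EFNB2 and opposite to EFNB3.

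Of the 5 A class ephrins, EFNA5, a ligand of EPHA3 and EPHA5, was called. Its values were 7.04, 6.91 and 6.73 in PC-3/Mc and 6.31, 6.45 and 6.58 in PC-3/S, a difference of 0.45 ± 0.10 (adjusted p = 0.0040). The other 3 EFNA5 probe sets differed by -0.04 to 0.07 and were not called, and the mean over all 4 gave 0.13 with no call (adjusted p = 0.17). EFNA1, the main ligand of EPHA2, averaged 8.33 ± 0.06 in PC-3/Mc, against 8.39 ± 0.11 in PC-3/S, with a 95% interval of the difference from -0.25 to 0.13. EFNA2, EFNA3 and EFNA4 were not called either, with differences of 0.02, 0.19 and -0.24.

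Eph receptors held the largest single difference. EPHA3, an EphA receptor that binds EFNA5, read 7.98, 8.28 and 7.78 in PC-3/Mc, against 3.18, 3.21 and 3.11 in PC-3/S. The PC-3/S arrays lay well under the background reading and the PC-3/Mc arrays well above it, so that EPHA3 exceeded its PC-3/S level at least 7.15-fold in PC-3/Mc (difference as measured 4.85 ± 0.12, adjusted p = 2.0e-10). A second EPHA3 probe set read 6.55, 6.50 and 6.09 in PC-3/Mc and 4.46, 4.71 and 4.50 in PC-3/S. The remaining one lay at 2.95 ± 0.18 in PC-3/Mc, against 2.96 ± 0.06 in PC-3/S, and differed by -0.0065 ± 0.10. After removal of the _x_at and _s_at probe sets, which can match several transcripts, EPHA3 rested on that dim probe set alone and its call was lost (adjusted p = 0.97).

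EPHA5, a receptor of A class ephrins best known from brain, was the other higher Eph receptor. Its values were 7.21, 7.43 and 6.95 in PC-3/Mc and 5.25, 5.29 and 5.65 in PC-3/S. PC-3/S lay just above background and the lines did not overlap, a 3.47-fold difference (1.79 ± 0.14, adjusted p = 1.3e-06). A further EPHA5 probe set differed by 2.30 ± 0.10 in the same direction, and the last, under background, by 0.08 with no call. EPHA5-AS1, an antisense transcript named after EPHA5, was called higher as well, at 5.42 ± 0.21 in PC-3/Mc, against 4.90 ± 0.25 in PC-3/S (0.53, adjusted p = 0.0085). The antisense transcripts EPHA1-AS1, EPHA2-AS1 and UNC5B-AS1 were under 5.18 in both lines and not called.

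Receptors on the lower side were EPHA2, EPHB3, EPHB6, EPHA4 and EPHA8. EPHA2, an Eph receptor prominent in carcinomas, was bright in both lines, at 9.40, 9.39 and 9.38 in PC-3/Mc and 10.51, 10.47 and 10.44 in PC-3/S. Its arrays hardly varied within a line, and the gene was 2.12-fold lower in PC-3/Mc (-1.08 ± 0.07, adjusted p = 4.7e-07). EPHB6, a receptor without kinase activity, read 4.78, 4.48 and 4.96 in PC-3/Mc, against 6.40, 6.49 and 6.53 in PC-3/S. PC-3/Mc lay under background on every array, and the gene was at least 2.45-fold lower (adjusted p = 4.3e-07).

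EPHB3, an EphB receptor of epithelial compartments such as the gut, read 5.52, 5.62 and 5.39 in PC-3/Mc and 6.68, 6.66 and 6.58 in PC-3/S. The lines did not overlap and the gene was 2.20-fold lower in PC-3/Mc (-1.13 ± 0.09, adjusted p = 1.1e-06), with its second probe set also lower (-0.81). EPHA4, which binds ephrins of both classes, was at 4.98 ± 0.06 in PC-3/Mc, under background, and 5.91 ± 0.10 in PC-3/S. Its difference was -0.93 ± 0.08 (adjusted p = 4.1e-06), and 4 of its 5 probe sets were called lower, by -0.60 to -1.58. EPHA8 was dim in both lines and differed by -0.33 (adjusted p = 0.0078), a call lost when its probe sets were averaged (-0.12, adjusted p = 0.23).

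For EPHB4, the receptor of EFNB2, the values were 8.27, 7.91 and 7.94 in PC-3/Mc and 8.08, 7.96 and 8.07 in PC-3/S. The lines overlapped, with a 95% interval of the difference from -0.23 to 0.24. EPHA7 overlapped as well, at 7.17 ± 0.15 in PC-3/Mc, against 7.27 ± 0.02 in PC-3/S. EPHA1, EPHA6, EPHA10 and EPHB1 read at most 5.72 on average in either line and were not called, though a second EPHA1 probe set was called lower (-0.41). Of 13 Eph receptors 2 were higher, 5 lower and 6 not called, 53.8% called where 45.9% of all genes were. Of 8 ephrins 3 were higher, 1 lower and 4 not called, 50% called. Among all genes above background in a line, 64.2% were called.

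**Figure D2:**
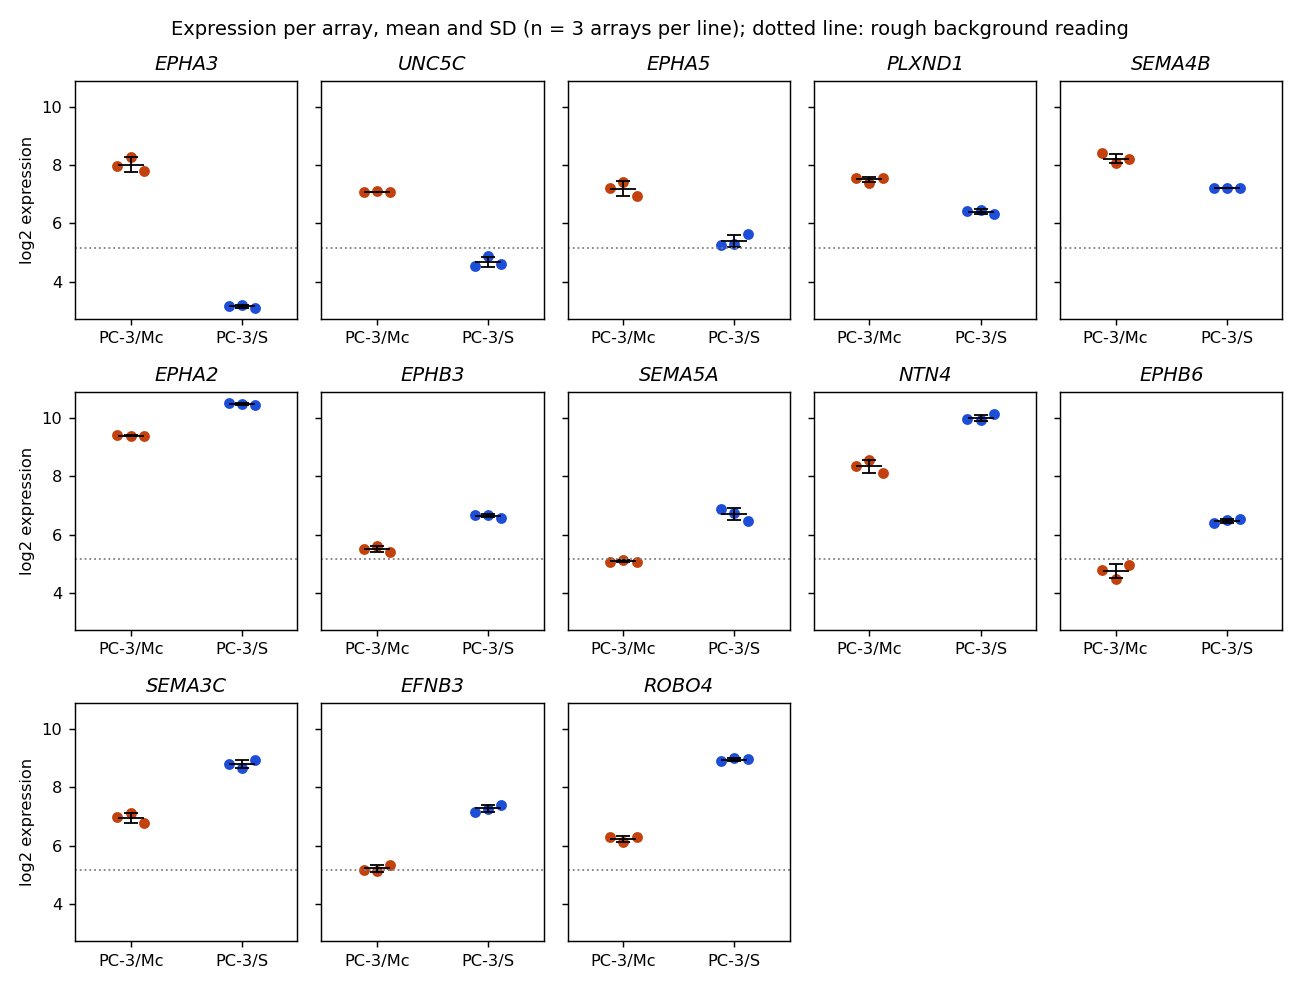
Log2 expression on each array for the 13 members that were called with at least a 2-fold difference, no overlap between the lines and a mean in the higher line of at least 5.98, the median gene; points are arrays, bars mean ± SD (n = 3 per line), PC-3/Mc left, and the dotted line is the background reading of 5.18. EPHA3, UNC5C, EPHA5, PLXND1 and SEMA4B are higher in PC-3/Mc and the other 8 lower, and the PC-3/S arrays of EPHA3 lie near 3.17.

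Those 13 genes met the rule for full values, as did 10.6% of all genes. Of the 20 semaphorins, the largest family, 5 were higher, 8 lower and 7 not called, 65% called where 45.9% of all genes were. Of the 15 above background in a line, 73.3% were called, where 64.2% of all such genes were. SEMA3C, a secreted semaphorin that signals through neuropilins, read 6.995, 7.12 and 6.77 in PC-3/Mc, against 8.78, 8.66 and 8.95 in PC-3/S. Every PC-3/Mc array lay below every PC-3/S array, a 3.57-fold lower level (-1.84 ± 0.11, adjusted p = 1.8e-07), and its second probe set differed by -1.53.

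Other secreted members ran the opposite way. SEMA3A, the classic collapsing factor of axon growth cones, read 8.24, 8.18 and 8.05 in PC-3/Mc and 7.34, 7.35 and 7.36 in PC-3/S. It was higher in PC-3/Mc without overlap (0.81 ± 0.08, adjusted p = 9.5e-06), and all 3 of its probe sets were called in that direction. SEMA3F, a ligand of NRP2, was at 8.64 ± 0.06 in PC-3/Mc, against 8.20 ± 0.07 in PC-3/S (0.44 ± 0.08, adjusted p = 8.2e-04).

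SEMA3D and SEMA3E were called higher but dim. SEMA3D was at 5.39 ± 0.21 in PC-3/Mc, against 4.14 ± 0.05 in PC-3/S (1.26 as measured, adjusted p = 2.5e-06). SEMA3E, which can bind PLXND1 without a neuropilin, was at 5.08 ± 0.35 in PC-3/Mc, against 3.66 ± 0.22 in PC-3/S (1.42 as measured, adjusted p = 3.4e-05), under background in both lines, so no fold is given. SEMA3B and SEMA3G were under 5.18 in both lines and not called.

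SEMA3C, SEMA3E, SEMA3A and SEMA3D lie in this order along chromosome 7 in the RefSeq gene table of GRCh38.p14, in a span with 7 protein-coding genes. All 7 were measured and all were called, 4 higher and 3 lower. Between SEMA3C and SEMA3E lie HGF, the hepatocyte growth factor gene (-0.35 ± 0.13, adjusted p = 0.042), CACNA2D1, a calcium channel subunit gene (1.28 ± 0.10, adjusted p = 1.2e-06), and PCLO, a presynaptic scaffold gene (-1.18 ± 0.08, adjusted p = 6.6e-07). Calls are common among all genes (45.9%, or 64.2% of those above background in a line), and HGF passed only narrowly. The 3 genes at the SEMA3D end were all higher in PC-3/Mc.

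**Figure D3:**
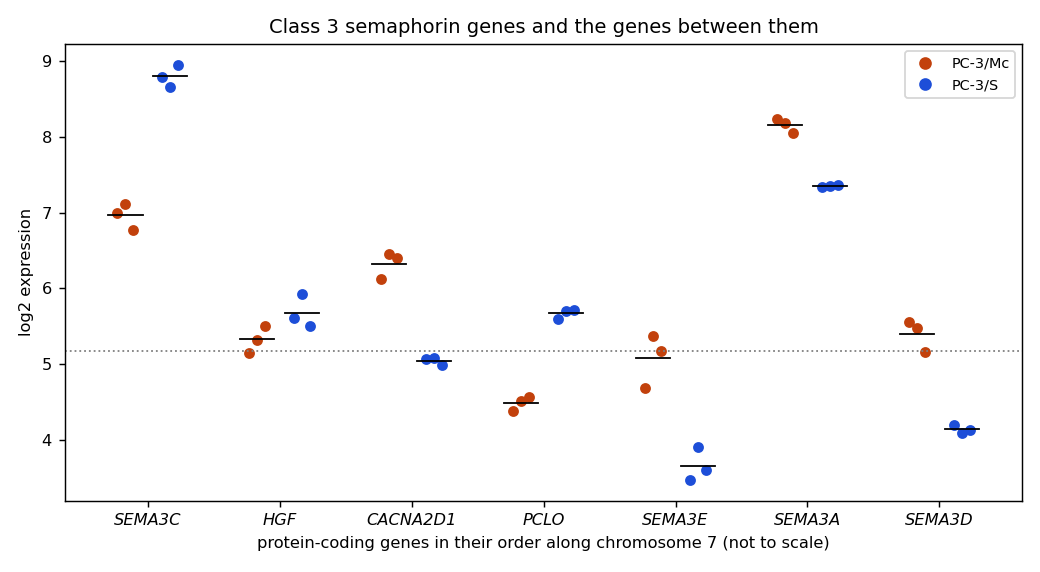
Log2 expression on each array for the 7 protein-coding genes from SEMA3C to SEMA3D, in chromosomal order on the horizontal axis; points are arrays, short lines are means of 3 arrays, PC-3/Mc left of PC-3/S, and the dotted line is the background reading of 5.18. SEMA3C, HGF and PCLO are lower and CACNA2D1, SEMA3E, SEMA3A and SEMA3D higher in PC-3/Mc.

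Of 13 membrane-bound semaphorins 7 were lower in PC-3/Mc, 1 was higher and 5 were not called. Over all genes 22.7% were lower and 23.2% higher, and 64.2% of those above background in a line were called. The lower calls of SEMA4D, SEMA4G and SEMA6D have limits given below. SEMA5A, a transmembrane semaphorin with thrombospondin repeats, read 5.06, 5.12 and 5.06 in PC-3/Mc, against 6.88, 6.75 and 6.48 in PC-3/S. PC-3/Mc lay under background on all arrays, and the gene was at least 2.89-fold lower (-1.62 ± 0.10 as measured, adjusted p = 3.0e-07). Its other probe sets differed by -2.15 and -1.35, so that all 3 were called the same way.

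SEMA7A, a lipid-anchored semaphorin that binds PLXNC1 and integrins, read 7.16, 7.04 and 7.38 in PC-3/Mc and 8.11, 8.02 and 7.97 in PC-3/S. The lines did not overlap (-0.84 ± 0.10, adjusted p = 3.2e-05). In class 4, SEMA4C (-0.45 ± 0.08), SEMA4D (-0.70 ± 0.13), SEMA4F (-0.52 ± 0.09) and SEMA4G (-0.66 ± 0.09) were lower, with adjusted p-values between 1.3e-04 and 0.0011. SEMA4D, the ligand of PLXNB1, was under background in both lines, and the 3 probe sets of SEMA4F were all called lower. The second SEMA4G probe set differed by 0.16 with no call, and the SEMA4G call was lost when the probe sets were averaged (-0.25, adjusted p = 0.058).

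SEMA4B was the called class 4 gene on the higher side, at 8.40, 8.07 and 8.20 in PC-3/Mc and 7.20, 7.21 and 7.23 in PC-3/S. It was 2.02-fold higher without overlap (1.01 ± 0.09, adjusted p = 5.4e-06). SEMA6D was called lower on its brightest probe set (-0.46 ± 0.10, adjusted p = 0.0028), which was dim, and its 5 probe sets split into 3 called lower, 1 called higher (0.27) and 1 not called. Its call was lost without the _s_at probe sets (-0.22, adjusted p = 0.14). SEMA4A, SEMA5B, SEMA6A, SEMA6B and SEMA6C were not called, with differences from -0.42 to 0.01.

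Of the plexins, 2 were higher, 1 lower and 6 not called of 9, 33.3% called where 45.9% of all genes were. PLXND1, the receptor of SEMA3E, read 7.57, 7.40 and 7.55 in PC-3/Mc and 6.43, 6.46 and 6.31 in PC-3/S. It was 2.15-fold higher without overlap (1.10 ± 0.08, adjusted p = 1.2e-06), and a second probe set gave 1.49. The remaining PLXND1 probe set, above background in both lines, was not called (-0.01, adjusted p = 0.95 over all probe sets). PLXNB2, the receptor of SEMA4C, was higher at 7.48 ± 0.16 in PC-3/Mc, against 7.06 ± 0.09 in PC-3/S (0.42, adjusted p = 0.0046), a call lost when its probe sets were averaged (0.22, adjusted p = 0.14) or when its _s_at probe set was removed (0.03, adjusted p = 0.91).

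PLXNA2 was lower in PC-3/Mc (-0.38 ± 0.09, adjusted p = 0.0039) on 2 of its 3 probe sets. PLXNA1 was bright and just missed the threshold (0.22 ± 0.08, adjusted p = 0.059); its next brightest probe set differed by -0.22, so its direction is not settled. PLXNA3, PLXNA4, PLXNB1, PLXNB3 and PLXNC1 were not called, and PLXNA4 and PLXNC1 read under 5.18 in both lines.

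ROBO4 and ROBO3 were lower in PC-3/Mc, and no Slit was called on its brightest probe set. ROBO4, a Robo receptor known mainly from endothelium, read 6.30, 6.12 and 6.30 in PC-3/Mc, against 8.89, 8.99 and 8.97 in PC-3/S. All arrays of both lines lay above background, without overlap, and the gene was 6.54-fold lower in PC-3/Mc (-2.71 ± 0.08, adjusted p = 1.1e-09). A second ROBO4 probe set was called lower by a smaller amount (-0.53 ± 0.12).

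Of 7 endothelial markers, all measured, 1 was higher in PC-3/Mc and 1 was lower, and their summed log2 level ran from 33.39 to 34.82 in PC-3/Mc and from 35.39 to 36.47 in PC-3/S. KDR was at 4.06 ± 0.06 in PC-3/Mc, against 6.23 ± 0.21 in PC-3/S, PECAM1 was higher by 0.60, and CDH5, VWF, TEK and TIE1 lay under 5.18 in both lines. The part of other cell types in the ROBO4 difference was not tested. ROBO3, which controls midline crossing of axons, was lower as well, at 6.47 ± 0.20 in PC-3/Mc, against 7.09 ± 0.03 in PC-3/S (-0.62 ± 0.10, adjusted p = 4.6e-04).

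ROBO1, the widely expressed Slit receptor, read 8.90, 8.83 and 8.57 in PC-3/Mc and 8.73, 8.64 and 8.85 in PC-3/S. Its lines overlapped, with a 95% interval of the difference from -0.20 to 0.26. SLIT2, a secreted ligand of ROBO1, read 10.11, 10.02 and 10.16 in PC-3/Mc and 10.11, 10.06 and 9.88 in PC-3/S. Here too the lines overlapped, with an interval from -0.12 to 0.27, although a dimmer SLIT2 probe set was called higher (0.27 ± 0.09) and the mean over its probe sets passed (0.18, adjusted p = 0.041). SLIT1, SLIT3 and SLIT2 were not called by limma (unadjusted p = 0.83, 0.38 and 0.39), and ROBO2 lay under background in both lines.

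In the netrin system, the bright ligand was lower and the receptors UNC5C and UNC5D were higher in PC-3/Mc. NTN4, a netrin that binds laminin in basement membranes, read 8.35, 8.56 and 8.10 in PC-3/Mc, against 9.95, 9.91 and 10.12 in PC-3/S. The lines were far apart, a 3.16-fold lower level in PC-3/Mc (-1.66 ± 0.12, adjusted p = 6.6e-07) on the single NTN4 probe set. NTN5 was dim and lower (-0.53 ± 0.10, adjusted p = 0.0013), and NTN1 and NTN3 were under background and not called.

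UNC5C, a netrin receptor that mediates repulsion and can signal cell death, read 7.07, 7.09 and 7.07 in PC-3/Mc, against 4.56, 4.88 and 4.60 in PC-3/S. PC-3/S lay under background on all arrays, and UNC5C exceeded its PC-3/S level at least 3.73-fold in PC-3/Mc (2.39 ± 0.10 as measured, adjusted p = 8.9e-09). A second UNC5C probe set differed by 1.75 ± 0.12, and the other 3, all under background, by 0.50 (called), 0.24 and 0.0037 (not called). UNC5D was called higher but dim, at 5.21 ± 0.09 in PC-3/Mc against 4.03 ± 0.19 in PC-3/S (1.18 as measured, adjusted p = 3.4e-06).

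UNC5A and UNC5B were not called, with differences of 0.11 and -0.12. UNC5CL, an intracellular death-domain protein rather than a netrin receptor, was under background in both lines and called lower (-0.41, adjusted p = 0.0060). DCC, the attractive netrin receptor, was under background at 4.47 ± 0.09 in PC-3/Mc, against 4.42 ± 0.06 in PC-3/S.

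At the level of probe sets, 64 of the 159 were called, 27 higher and 37 lower, where 35.9% of all probe sets were. Of 25 called genes with more than 1 probe set, 18 had at least 1 more probe set called the same way, and SEMA6D was the 1 gene with calls in both directions. EPHA1, PLXNC1 and SLIT2, not called as genes, each had a dimmer probe set with a call.

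**Figure D4:**
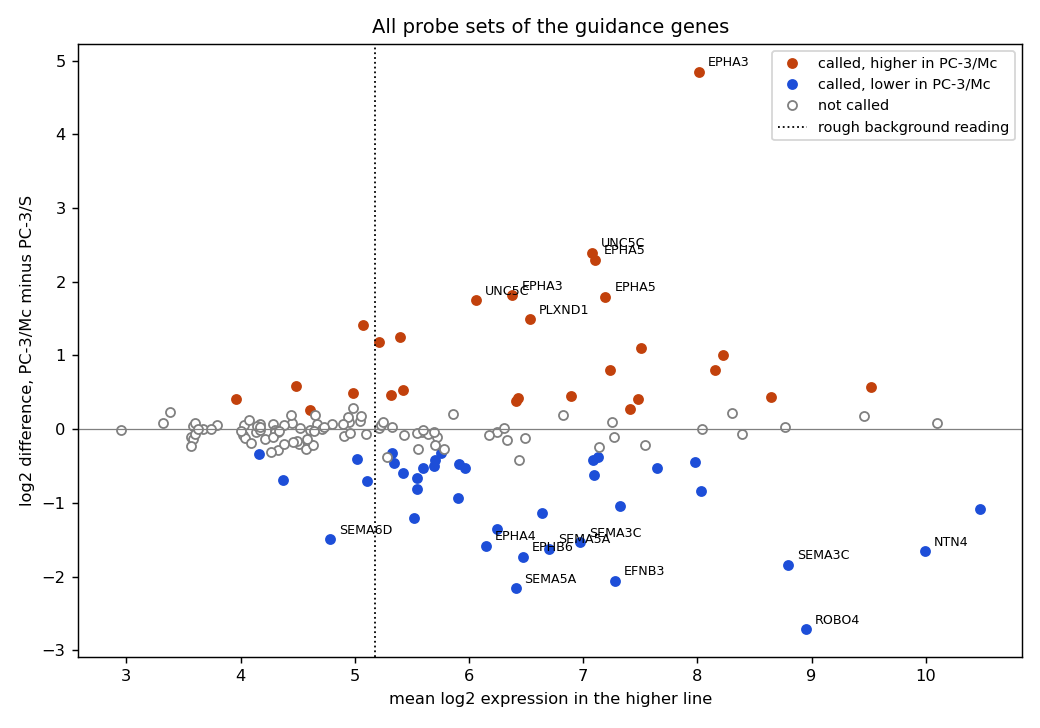
All 159 probe sets of the guidance genes, with the mean log2 expression in the higher line on the horizontal axis and the log2 difference (PC-3/Mc minus PC-3/S) along the vertical axis; filled points were called at probe set level and the dotted line marks 5.18. The points farthest from 0 carry the gene's symbol, and the called probe sets of EPHA5, SEMA3C and SEMA5A lie on 1 side of 0 for each gene, while those of SEMA6D lie on both.

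Co-receptors and intracellular partners were given by a list of 64 genes, of which 62 were measured. The list was chosen by role, but with earlier results of these data known. Its share of calls and its median are therefore descriptive and no independent test. Of these 13 were higher, 26 lower and 23 not called in PC-3/Mc, 62.9% called where 45.9% of all genes were. Of the 53 partners above background in a line, 71.7% were called, where 64.2% of all such genes were. Over the 62 the median difference was -0.17 against -0.03 over all genes. Of the neuropilins, co-receptors of the secreted semaphorins, 1 was called. NRP1 was bright at 10.29 ± 0.20 in PC-3/Mc, against 10.45 ± 0.04 in PC-3/S and not called (95% interval -0.39 to 0.07), while NRP2 was higher at 6.85 ± 0.06 in PC-3/Mc, against 6.06 ± 0.04 in PC-3/S (0.79 ± 0.08, adjusted p = 7.7e-06).

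NCK2, an adaptor that links Eph receptors and other tyrosine kinases to actin, had the largest difference of the list. It read 4.84, 4.58 and 4.68 in PC-3/Mc, against 9.28, 9.28 and 9.31 in PC-3/S. PC-3/Mc lay under background on all arrays and PC-3/S far above it, at least 17.3-fold lower on the single NCK2 probe set (-4.59 ± 0.09 as measured, adjusted p = 3.9e-11). NCK1, its close relative, was higher at 8.96 ± 0.18 in PC-3/Mc, against 8.66 ± 0.12 in PC-3/S (0.30, adjusted p = 0.038).

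RND3, an inhibitor of the kinase ROCK1, read 10.26, 10.28 and 10.26 in PC-3/Mc and 12.53, 12.49 and 12.47 in PC-3/S. It was very bright in both lines and 4.67-fold lower in PC-3/Mc (-2.22 ± 0.07, adjusted p = 1.9e-09). Also lower were RGMB, a neogenin ligand (-1.56 ± 0.08), NTNG1, a lipid-anchored netrin relative (-1.39 ± 0.08), ABL2, an actin-regulating kinase (-1.39 ± 0.09), MICAL2, an actin-oxidising enzyme (-1.39 ± 0.09), and RRAS, a small GTPase that plexins inactivate (-1.31 ± 0.08). For each of these the lines were fully separated and the adjusted p was at most 3.3e-07.

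FLRT3, a membrane protein that binds UNC5 receptors, was lower as well but dim, at 4.21 ± 0.33 in PC-3/Mc, against 5.77 ± 0.11 in PC-3/S. VAV3, a guanine nucleotide exchange factor, was the partner with a measured log2 difference of at least 1 in the other direction. It was at 6.01 ± 0.23 in PC-3/Mc, against 4.68 ± 0.06 in PC-3/S. PC-3/S lay under background, so that the fold was at least 1.79 (1.34 ± 0.11 as measured, adjusted p = 2.7e-06). The neogenin gene NEO1, a receptor of netrins and RGMB, was dim and lower (-0.47 ± 0.09, adjusted p = 0.0012).

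**Figure D5:**
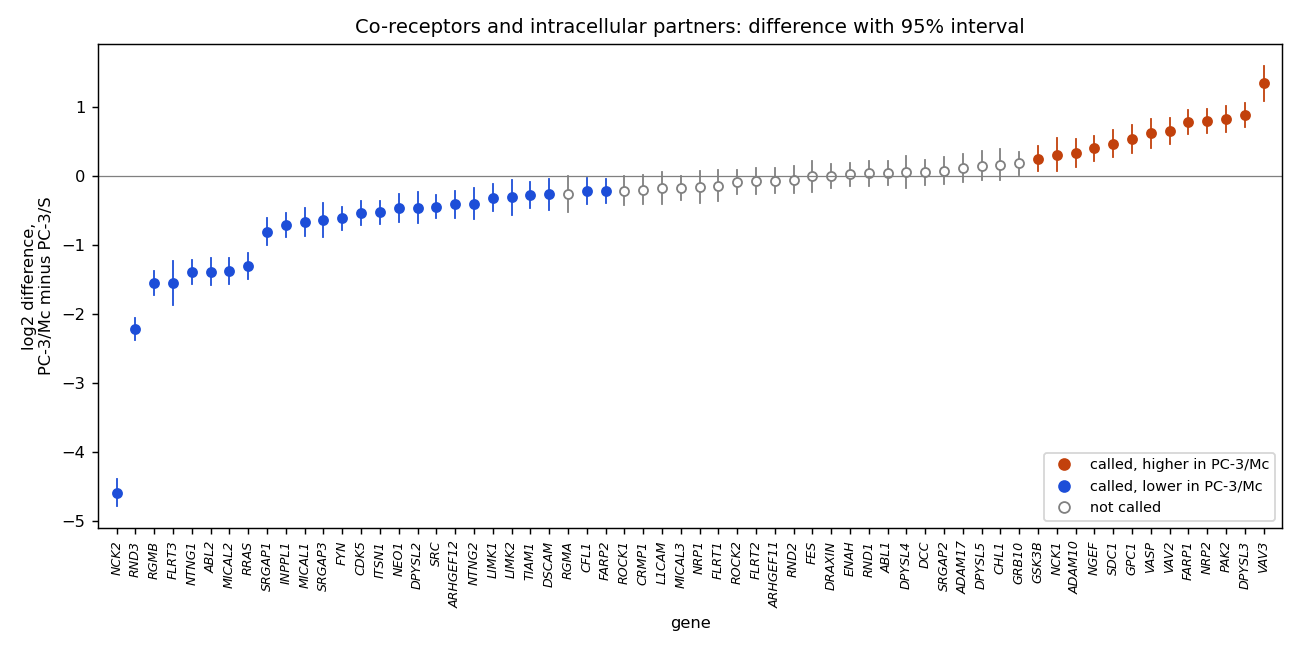
Log2 difference (PC-3/Mc minus PC-3/S) with 95% interval for the 62 co-receptor and intracellular partner genes, ordered by size; filled points were called. NCK2 lies far below the others at -4.59, followed by RND3 at -2.22, and VAV3 is highest at 1.34.

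Markers of other cell types were set beside these counts. Of 7 neuronal markers, all measured, 2 were higher in PC-3/Mc and 1 was lower, with summed log2 levels from 48.91 to 49.28 in PC-3/Mc and from 46.69 to 47.58 in PC-3/S. NEFL and TUBB3, cytoskeletal genes, made up the higher pair, and RBFOX3, SNAP25, STMN2 and MAP2 were under 5.18 in both lines. SYT1, above background in both lines, was the lower one, at 6.85 ± 0.12 in PC-3/Mc, against 7.22 ± 0.09 in PC-3/S. Of 6 fibroblast markers 1 was higher and 3 lower, with sums from 31.08 to 31.98 in PC-3/Mc and from 33.70 to 34.60 in PC-3/S. PDGFRA and PDGFRB were under 5.18 in both lines, and PDGFRB was the higher one (0.35). The lower ones were COL1A1 (-0.28), above background in both lines, and COL3A1 (-1.93) and DCN (-0.44), above it in PC-3/S alone. The 5 measured of 7 blood cell markers summed to 21.89 to 22.96 in PC-3/Mc and to 21.60 to 22.56 in PC-3/S, with PTPRC, CD3E, CD14 and LYZ under 5.18. HBB was above it in both lines, at 5.43 ± 0.08 in PC-3/Mc, against 5.66 ± 0.11 in PC-3/S, and was not called. The part of such cells in the guidance gene differences was not tested.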

How the data were processed

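The authors deposited a table of processed log2 expression values for 54675 probe sets on 6 arrays, with no other sample columns. Per the labels' protocols, RNA was purified on silica columns and biotin-labelled. The correction of background and the scaling of arrays were not given in the sources used here; base 2 was taken from the values, which ran from 2.59 to 14.45. Differences are relative to the other probe sets of an array.

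The 62 control probe sets were set aside; of the others, 41091 carried a single symbol, 1801 several and 11721 none. For each gene the brightest probe set (highest 6-array mean) was used. The deposited values were fitted without covariates in limma 3.58.1 (R 4.3.3; lmFit, then eBayes; two-sided), with Benjamini-Hochberg adjustment over all genes, or over all probe sets for counts of probe sets. The code was tested on simulated data. The number of arrays limits the precision. Alternatives in probe sets, scaling, filter, variance model, replicate block and arrays are given in the closing section. Values per array are given for called members with a difference of at least 1, no overlap and a mean in the higher line of at least 5.98, the median gene. Partners that met the same limit are named, and NRP1, NRP2, DCC, NEO1, NCK1 and FLRT3 are named in addition without meeting it. Promoters came from RefSeq, GRCh38.p14. The members and lists were chosen with earlier results of these data known. Partner genes RASA1 and PAK1 and 5 listed markers were not analysed here.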

Additional observations from a re-analysis of the deposited data

How the results depend on the processing

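The counts stayed within 1.5 times their values under every alternative run: averaged probe sets, _x_at and _s_at probe sets removed, quantile normalization, median centring, a filter at the 40th percentile of mean level, limma with trend and robust variance, a replicate block, and each array left out in turn. The filter and the removal of _x_at and _s_at probe sets also dropped genes, so their counts are over fewer genes. A limit of 1.5 times is wide, and the ranges follow. Higher guidance genes numbered 11 to 18 and lower ones 16 to 21 against 15 and 20, and 15 to 16 and 20 to 24 with 1 array left out. At least 2-fold differences numbered 12 to 16 against 16, and 13 with arrays raised to 5.18 first. The 3 lost, SEMA3D, SEMA3E and UNC5D, were all higher in PC-3/Mc, so the balance of 8 in each direction did not hold. The share of all genes at that setting is not given here. Leaving out the antisense transcripts and UNC5CL, an alternative chosen after seeing the data, gave 14 higher and 19 lower. Called partners numbered 30 to 40 against 39, called guidance probe sets 58 to 72 against 64, and all called genes 6903 to 9492 against 9083. EPHA3 was reversed to -0.0065 (adjusted p = 0.97) when _x_at and _s_at probe sets were removed, which left its dim probe set; of 167 values of the 13 fully described genes under the alternatives, this was the 1 that lost its call or changed direction. EFNA5, EPHA8, PLXNB2, SEMA4G and SEMA6D lost their calls under a choice of probe sets. PLXNB3, SEMA5B, SEMA4A and EFNA4 were called lower without PC-3/Mc replicate 3 (-0.55, -0.62, -0.37 and -0.34), PLXNB3 also without PC-3/S replicate 3 (-0.47), PLXNA1 was called higher without PC-3/S replicate 3 (0.29), and SEMA3G without PC-3/Mc replicate 1 (0.24). Calls were also gained by SLIT2 with averaged probe sets (0.18), EPHA1 without _x_at and _s_at probe sets (-0.41), EFNA3 with centring (0.24), SEMA3G with quantile normalization (0.22) and centring (0.24), PLXNA1 with centring (0.27), the filter and the trend and robust setting (0.22 in both), and PLXNB3 with the trend and robust setting (-0.37). Same-numbered arrays did not deviate together (r = -0.02, -0.26 and -0.38). Deviations from a mean of 3 arrays constrain each other, so these values cannot exclude that same-numbered arrays were handled in pairs. With the replicate block, all genes called numbered 8090, with 15 guidance genes higher and 20 lower. The cause of these changes was not tested where the alternative's construction does not show it. Readings near or under 5.18 limit what can be said of dim members.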

Other observations

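The within-line spread of the guidance genes and of all genes is given here as values. Over the 70 members the median SD was 0.14 for PC-3/Mc arrays, against 0.10 for PC-3/S arrays. Over all genes it was 0.11 for PC-3/Mc arrays, against 0.09 for PC-3/S arrays.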
